A study of Mus musculus with 6 samples.

Results

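The genes described here are 8 regulators and products of endoderm: the transcription factors Gata4, Gata6, Sox17, Sox7, Foxa2 and Hnf4a, the endocytic adaptor Dab2 and the fetal serum protein Afp. They were taken by gene symbol from the series table of 19330 genes, and all 8 had a row. RNA sequencing covered 6 mouse libraries. Induced pluripotent stem cells (iPSC) whose label names palmitoylcarnitine (PC iPSC) gave lines 5 and 13, normal (control) iPSC gave lines 3 and 7, and embryonic stem cells (ESC) and mouse embryonic fibroblasts (MEF) gave 1 library each. Palmitoylcarnitine is the carnitine ester of palmitate. For its dose and timing, the reprogramming method, and strain, age and sex of the animals, the sources used here give nothing. The ESC library is titled B6. All ESC and iPSC were grown with leukemia inhibitory factor on MEF feeder cells stopped with mitomycin C, so RNA of feeders can be present in these 5 libraries, while MEF grew alone in serum medium. Each iPSC library is 1 line, and no label says whether lines came from separate animals, so the spread between lines is the only replicate error.

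Endoderm arises more than once in the mouse embryo. In the blastocyst, cells of the inner cell mass that keep GATA6 and lose NANOG under fibroblast growth factor signalling become primitive endoderm, which goes on to express GATA4, SOX17 and SOX7 and to form the parietal and visceral endoderm of the yolk sac, where DAB2, HNF4A and AFP are found. Definitive endoderm forms later at the primitive streak and uses SOX17 and FOXA2. Mouse ESC forced to express GATA6 or GATA4 turn into primitive endoderm-like cells, and GATA4, GATA6, SOX17 and DAB2 are also used outside endoderm, in heart, vessel, macrophage or fibroblast lineages.

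Assigned reads ran from 26.51 M to 27.99 M per library. Levels are RPKM, reads scaled by the length of the gene and the size of the library, so they can be compared between genes. Intervals given with a level of 1 library are exact 95% Poisson intervals that cover counting error only. These and the counting intervals of ratios take each read as independent. Low counts were more often even than odd, as given below, so reads may not be independent and counting intervals may be too narrow. Where no read was found, a floor of 3 reads per library is used. Pluripotency genes were high in every iPSC library, with Pou5f1 from 400.9 to 530.8 and Nanog from 387.8 to 472.7 RPKM, and in ESC at 602.4 and 316.1 RPKM. The MEF library had Nanog at 0.0482 RPKM and no read of Zfp42 or Esrrb, but also Pou5f1 at 157.7 and Sox2 at 88.2 RPKM, beside the fibroblast collagen Col1a1 at 904.2 RPKM. Pou5f1 and Sox2 are pluripotency genes and go against the label of that library, the cause was not tested, and every value against the library labelled MEF rests on it alone. RNA of fibroblast marker genes was found in all pluripotent libraries, and which cells it came from was not tested. The 20 markers summed to 2988 and 2554 RPKM in PC iPSC 5 and 13, 1563 and 2823 in control iPSC 3 and 7, 1126 in ESC and 9919 in MEF.

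Windows from 250 bases before to 50 bases after start sites are shown for Dab2, the member with the highest level, for Hnf4a, whose level was set apart by 1 line, and for Afp, which was close to silent. DAB2 and HNF4A act downstream of the GATA factors in mouse extraembryonic endoderm. The sequences are RefSeq windows of 300 bases on GRCm38.p6, 5′ to 3′ on the gene's strand. Capitals mark GATA motifs, searched as AGATAA or as AGATAG or as TGATAA or as TGATAG on both strands with overlaps allowed, and 29.8% of the 32851 promoter windows hold at least 1. Of the 8 members 4 had windows in the table, 8 windows in all.
Dab2 first start, chr15:6299539-6299838, + strand: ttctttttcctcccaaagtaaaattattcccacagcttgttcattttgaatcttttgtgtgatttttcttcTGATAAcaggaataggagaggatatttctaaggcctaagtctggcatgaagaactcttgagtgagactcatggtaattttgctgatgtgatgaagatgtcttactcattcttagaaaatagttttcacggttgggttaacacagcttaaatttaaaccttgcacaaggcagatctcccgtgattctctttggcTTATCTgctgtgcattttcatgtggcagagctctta
Dab2 second start, chr15:6386498-6386797, + strand: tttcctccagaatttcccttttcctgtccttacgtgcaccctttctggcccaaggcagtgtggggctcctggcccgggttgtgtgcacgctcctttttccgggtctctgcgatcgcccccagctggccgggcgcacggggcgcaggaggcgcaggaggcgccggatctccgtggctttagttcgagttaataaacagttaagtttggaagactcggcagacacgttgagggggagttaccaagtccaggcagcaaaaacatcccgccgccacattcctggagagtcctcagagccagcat
Hnf4a first start, chr2:163506607-163506906, + strand: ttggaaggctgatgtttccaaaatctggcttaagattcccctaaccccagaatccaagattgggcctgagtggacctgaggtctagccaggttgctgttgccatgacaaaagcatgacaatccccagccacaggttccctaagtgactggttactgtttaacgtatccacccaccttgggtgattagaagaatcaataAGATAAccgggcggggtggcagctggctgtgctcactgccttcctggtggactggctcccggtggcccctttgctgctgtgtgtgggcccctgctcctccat
Hnf4a second start, chr2:163546905-163547204, + strand: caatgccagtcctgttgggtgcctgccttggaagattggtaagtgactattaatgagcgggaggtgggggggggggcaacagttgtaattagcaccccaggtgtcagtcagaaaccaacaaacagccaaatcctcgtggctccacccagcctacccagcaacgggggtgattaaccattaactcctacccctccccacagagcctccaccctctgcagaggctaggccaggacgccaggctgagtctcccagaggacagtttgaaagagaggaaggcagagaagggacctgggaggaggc
Afp, chr5:90490464-90490763, + strand: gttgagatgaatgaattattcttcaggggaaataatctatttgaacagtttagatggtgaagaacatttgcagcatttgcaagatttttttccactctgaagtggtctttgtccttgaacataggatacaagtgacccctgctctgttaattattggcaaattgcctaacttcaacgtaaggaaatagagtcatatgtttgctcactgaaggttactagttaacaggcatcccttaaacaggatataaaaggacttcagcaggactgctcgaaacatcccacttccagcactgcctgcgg
The first Dab2 window held 2 motifs, TGATAA from base 72 and AGATAA on the other strand from base 265, and the first Hnf4a window held AGATAA from base 199. The second windows of Dab2 and Hnf4a and the Afp window held none of these letters. The second Dab2 window had 19 CG pairs, against 2 in the first one, 4 in each Hnf4a window and a median of 7 over all windows. Reads were assigned per gene, so which window a library used cannot be read from the values below.

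Gata4, a zinc finger factor of primitive endoderm and heart (chromosome 14, 63198914 to 63271712, minus strand, GRCm38.p6, as for all positions here), was the most even of the members across pluripotent libraries. Its level was 1.74 and 2.28 RPKM in PC iPSC 5 and 13, 2.68 and 2.21 RPKM in control iPSC 3 and 7, 2.36 RPKM in ESC and 0 in MEF. The 164 to 251 reads of each iPSC library covered 93.9% to 99.7% of the gene's length, and the 224 reads of ESC covered 97.5%. ESC thus lay inside the range of the lines, and only MEF stood apart, with no read, where the floor of 3 reads is 0.0316 RPKM. In order of level, the neighbours control iPSC 3, ESC, PC iPSC 13 and control iPSC 7 had overlapping counting intervals, as had PC iPSC 5 (1.49 to 2.03) with control iPSC 7 (1.92 to 2.54). PC iPSC 5, the lowest line, was 0.651 times control iPSC 3, the highest (95% counting interval 0.531 to 0.796). PC iPSC 13 was 1.03 times control iPSC 7 (0.844 to 1.26).

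Gata6, the GATA factor that starts the primitive endoderm programme in the blastocyst (chromosome 18, 11052510 to 11085636), stood lower than Gata4 in the pluripotent libraries and had reads in all 6 libraries. It was at 1.36 and 1.19 RPKM in PC iPSC 5 and 13, 1.02 and 1.09 RPKM in control iPSC 3 and 7, 0.56 RPKM in ESC and 1.85 RPKM in MEF. All 4 lines lay between ESC and MEF, and the PC lines lay above the control lines. The interval of ESC (0.416 to 0.739, from 50 reads) lay below those of all 4 lines, whose own intervals overlapped one another. Reads covered 87.3% of the gene in ESC and 91.8% to 98.3% in the lines. An antisense gene on the opposite strand, Gata6os, had 3 reads in PC iPSC 5, 3 in control iPSC 7 and none in the other libraries. No source used here says whether counting used strand.

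**Figure D1:**
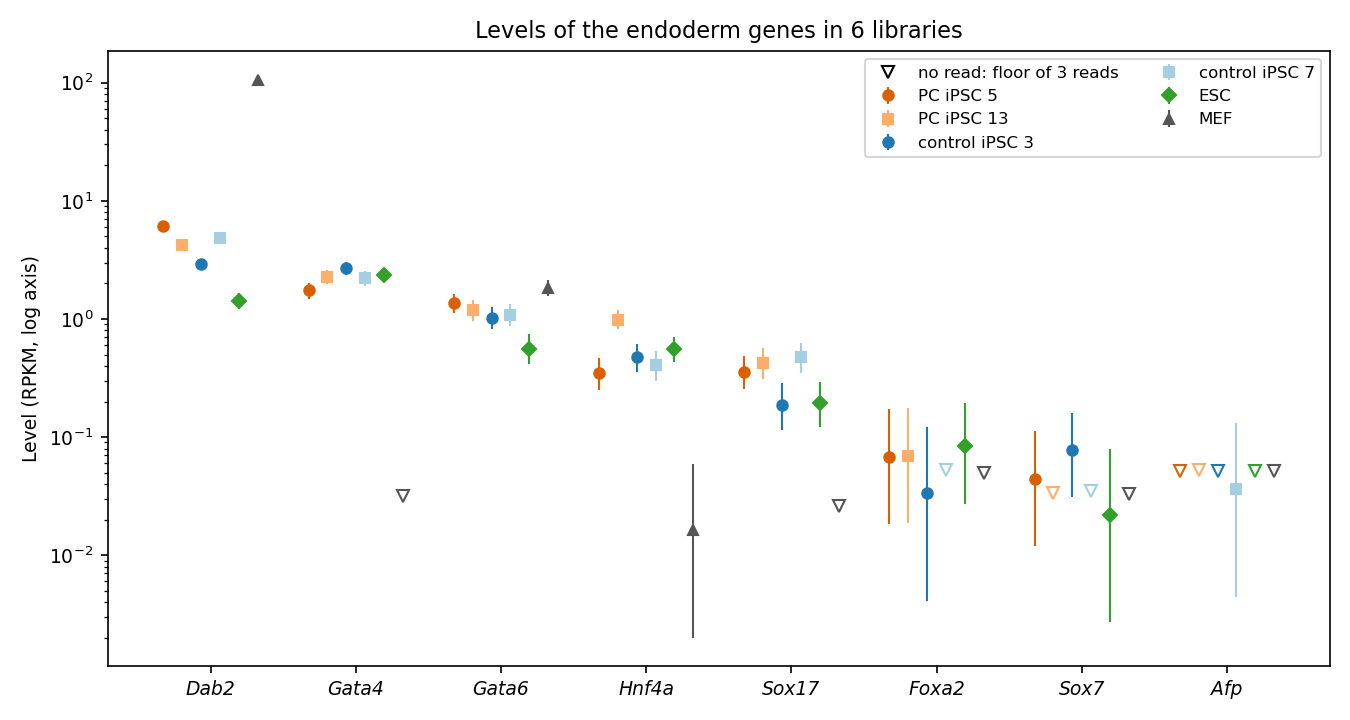
Level of the 8 genes (RPKM, log axis) in each library, with points for libraries, bars for exact 95% counting intervals and open triangles at the floor of 3 reads where no read was found. Dab2 spans 1.43 RPKM in ESC to 106.4 RPKM in MEF, Gata4 lies between 1.74 and 2.68 RPKM in the 5 pluripotent libraries with no read in MEF, and Foxa2, Sox7 and Afp lie at or near the floor.

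Sox17, an HMG-box factor of primitive and definitive endoderm and of arterial endothelium (chromosome 1, 4490928 to 4497426), was present at a low level in every pluripotent library. It stood at 0.354 and 0.425 RPKM in PC iPSC 5 and 13, 0.187 and 0.473 RPKM in control iPSC 3 and 7, 0.193 RPKM in ESC and 0 in MEF, from 40, 47, 21, 51, 22 and 0 reads. The control lines were the lowest and the highest of the 4 lines, with control iPSC 3 at 0.395 times control iPSC 7 (counting interval 0.226 to 0.669), and control iPSC 3 and ESC could not be told apart (ratio 0.966, 0.505 to 1.84). The reads lay on less of the gene than the median of comparable genes. They covered 42.6% and 43.5% of its length in PC iPSC 5 and 13 and 27.0% and 44.9% in control iPSC 3 and 7, while genes of like read number (within 1.5 times) and length (from 4/5 to 5/4 of it) had medians of 62.1%, 66.3%, 43.3% and 68.9% in these libraries. Of those like genes, 7.4% to 12.9% had a lower coverage. In ESC the 22 reads covered 38.0%, against a median of 44.6%, and 29.7% of like genes had a lower coverage. In every pluripotent library Sox17 lay above the 5th percentile of its like genes. Gm37587, annotated on the opposite strand, overlaps Sox17, and its share of these reads was not tested.

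**Figure D2:**
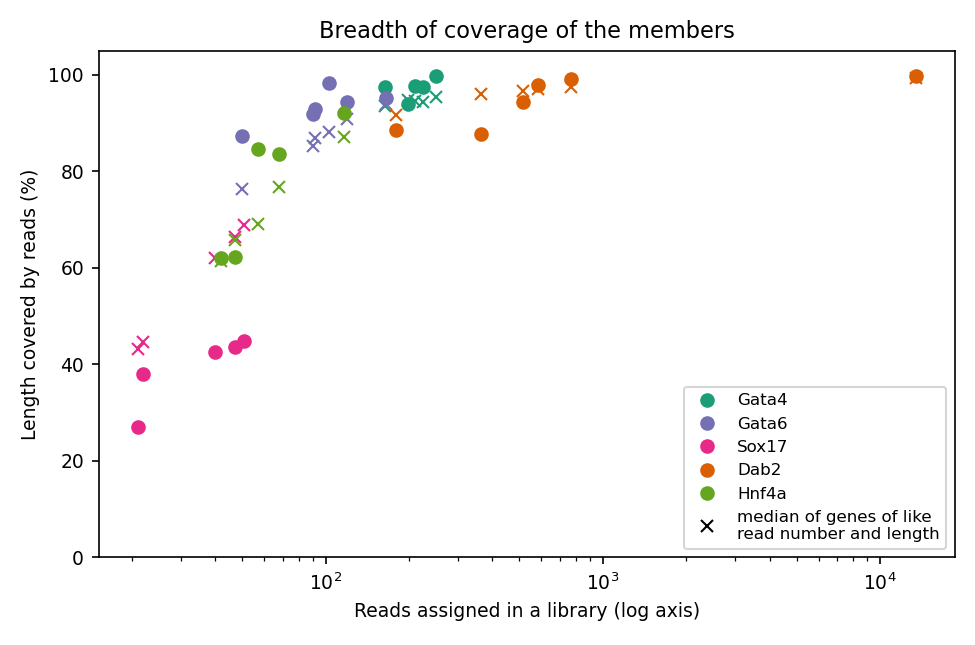
Percent of gene length covered by reads against the number of reads (log axis), a filled point for each library in which a member had at least 20 reads, and a cross for the median of genes of like read number and length in that library. The Sox17 points lie below their crosses, at 27.0% to 44.9% against 43.3% to 68.9%, while those of Gata6 lie above theirs.

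Sox7, the other SOX F factor of primitive endoderm (chromosome 14, 63943706 to 63950732), was near absence in all libraries. It had 4 reads in PC iPSC 5, 0 in PC iPSC 13, 7 in control iPSC 3, 0 in control iPSC 7, 2 in ESC and 0 in MEF. In the libraries with no read the floor of 3 reads is 0.0328 to 0.0347 RPKM. The highest level, 0.0776 RPKM in control iPSC 3, had an interval of 0.0312 to 0.160. The 2 SOX F members thus differed in level, Sox17 being detected in 5 of 6 libraries with at least 21 reads in each of these 5. Endothelial markers, which share SOX F factors, summed to 151.1 and 110.8 RPKM in PC iPSC 5 and 13, 105.9 and 109.9 RPKM in control iPSC 3 and 7, 109.8 RPKM in ESC and 62.7 RPKM in MEF. Most of that sum in iPSC was Pecam1, which mouse ESC also express (68.3 to 108.3 RPKM in iPSC and 76.2 RPKM in ESC). The endothelial cadherin Cdh5 had at most 3 reads in each iPSC library. Of 12 tested endothelial markers 2, Tie1 and Robo4, were called higher in iPSC than in ESC, where 4.71% of all tested genes were. Tie1 stood at 2.95 ± 1.33 RPKM in iPSC (SD, n = 4) and 0.406 RPKM in ESC. The part of endothelial cells in the Sox17 level was not tested.

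Foxa2, the forkhead pioneer factor of definitive endoderm (chromosome 2, 148042877 to 148046969), had 4 reads in PC iPSC 5, 4 in PC iPSC 13, 2 in control iPSC 3, 0 in control iPSC 7, 5 in ESC and 0 in MEF. These counts give at most 0.0837 RPKM, in ESC, with an interval of 0.0272 to 0.195, and no order can be read among them. Afp, the major serum protein of yolk sac and fetal liver (chromosome 5, 90490714 to 90508907), had 2 reads in control iPSC 7 and 0 in the other 5 libraries. The floor of 3 reads in these 5 is 0.0514 to 0.053 RPKM. The Afp promoter window is the last of those shown above. Of the 9 member values from 1 to 20 reads 7 were even numbers. Over all genes 62.4% to 67.5% of such low counts were even, against 48.8% to 50.6% above 20 reads. The cause was not tested, and bounds of counting intervals that lie close to a ratio of 1 should be read with this limit.

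Hnf4a, a nuclear receptor of visceral endoderm, liver and gut (chromosome 2, 163506811 to 163572907), was set apart by 1 line. It stood at 0.347 and 0.986 RPKM in PC iPSC 5 and 13, 0.472 and 0.406 RPKM in control iPSC 3 and 7, 0.557 RPKM in ESC and 0.0163 RPKM in MEF, from 42, 117, 57, 47, 68 and 2 reads. PC iPSC 5 was 0.352 times PC iPSC 13 (counting interval 0.241 to 0.504), so the PC lines lay at the 2 ends of the range and the control lines inside it. PC iPSC 13 was 1.77 times ESC (1.30 to 2.42) and PC iPSC 5 was 0.622 times ESC (0.413 to 0.928). The intervals of PC iPSC 5 and control iPSC 3 and 7 overlapped. The antisense gene Hnf4aos had 1 read in PC iPSC 5, 1 in control iPSC 7 and 0 elsewhere.

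Dab2, a clathrin adaptor that takes up cargo through megalin and cubilin and is a classical product of parietal and visceral endoderm (chromosome 15, 6299788 to 6440715), had the highest level of the 8 genes in each iPSC line and in MEF. It stood at 6.13 and 4.21 RPKM in PC iPSC 5 and 13, 2.92 and 4.87 RPKM in control iPSC 3 and 7, 1.43 RPKM in ESC and 106.4 RPKM in MEF. Counting intervals of neighbours in this order did not overlap except for control iPSC 7 and PC iPSC 13, whose ratio, PC iPSC 13 over control iPSC 7, was 0.866 (0.767 to 0.976). MEF had 74.6 times the ESC level (64.4 to 86.9), and 97.3% of genes had a lower level than Dab2 in MEF. In ESC, Dab2 (1.43 RPKM) lay below Gata4 (2.36 RPKM). Each of the 4 lines was above ESC and below MEF.

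The order of Dab2 over the libraries was that of the summed fibroblast markers, PC iPSC 5, control iPSC 7, PC iPSC 13, control iPSC 3 and ESC from high to low. How many of all genes have this order was not counted. As a percent of the MEF level, Dab2 came to 5.76 and 3.96 in PC iPSC 5 and 13, 2.74 and 4.57 in control iPSC 3 and 7, and 1.34 in ESC. The fibroblast collagen Col3a1 came to 5.59, 4.17, 2.72, 4.69 and 1.05 percent in the same libraries. Col3a1 is 1 of the 3 genes nearest to Dab2 in profile over these libraries, so its likeness here follows from that choice. Not every marker had this order, Lum being highest in PC iPSC 13 and Postn in control iPSC 7. The median of the 20 fibroblast markers was 25.2 and 20.6 percent in PC iPSC 5 and 13, 11.9 and 22.1 percent in control iPSC 3 and 7 and 5.66 percent in ESC, and the markers spread widely, from 0.66 percent for Dcn to 1585 percent for Acta2 in PC iPSC 5. In each library 3 to 5 of the 20 markers had a lower percent of MEF than Dab2. Gata6 stood at 73.4 and 64.3 percent of MEF in PC iPSC 5 and 13, 55.3 and 58.9 percent in control iPSC 3 and 7 and 30.4 percent in ESC, above 17 to 19 of the 20 markers. No fibroblast marker was at 0 in any library. Macrophage markers are relevant since mouse macrophages express Dab2. They summed to 20.7 and 17.4 RPKM in PC iPSC 5 and 13 and 20.4 and 14.5 in control iPSC 3 and 7. The ESC and MEF sums were 70.5 and 702 RPKM. These sums were mostly those of single genes. Cd68 stood at 55.2 RPKM in ESC and 7.77 to 13.8 RPKM in iPSC, and Lyz2 at 463.3 RPKM in MEF. The part of feeder fibroblasts or macrophages in the Dab2 and Gata6 levels was not tested. In such bulk libraries, fewer cells of a type and less RNA per cell cannot be told apart.

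**Figure D3:**
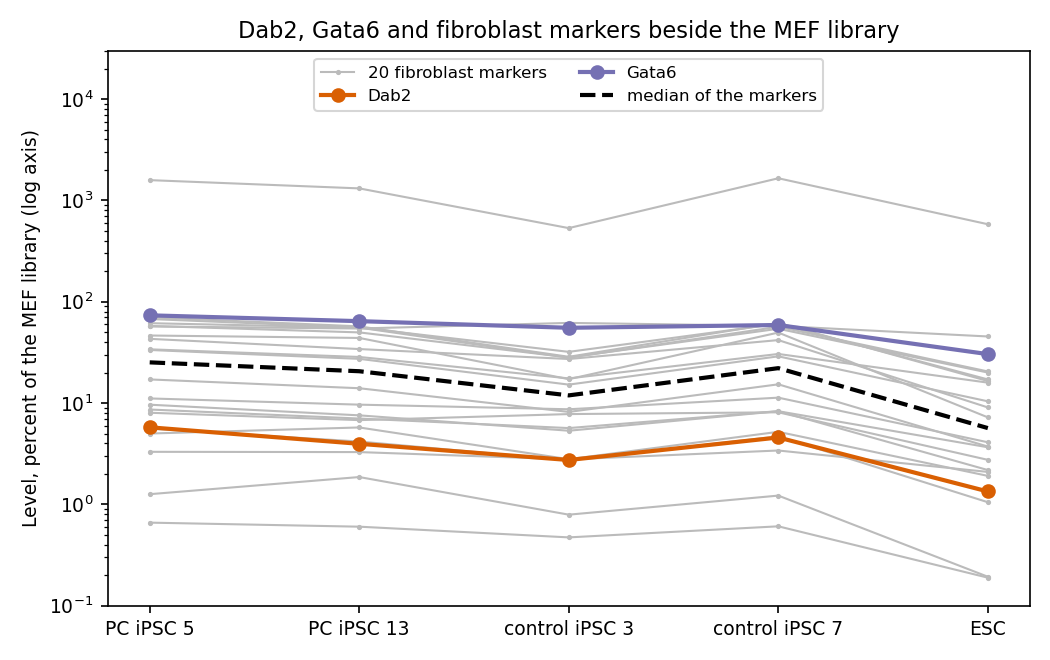
Level in each pluripotent library as a percent of the level in the MEF library (log axis) for Dab2, Gata6 and 20 fibroblast markers, each marker a grey line and their median dashed. Dab2 runs from 5.76 percent in PC iPSC 5 to 1.34 percent in ESC, in the lower part of the markers, and Gata6 from 73.4 to 30.4 percent, in the upper part.

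The comparison named in the series title, PC against control iPSC, gave no call for any of these genes. Counts were tested with edgeR's quasi-likelihood test over all 6 libraries with Benjamini-Hochberg adjustment over 16435 genes, a set that Gata4, Gata6, Sox17, Dab2 and Hnf4a entered and that left out Sox7, Foxa2 and Afp for low counts. Of the 5 tested members 0 were called, where 0.0% of all tested genes were, and 0 had an unadjusted p under 0.05. Over all genes 385 had an unadjusted p under 0.05. DESeq2 called 0 genes, with 248 under that unadjusted p, and limma called 0 on both log2 RPKM scales, with 492 and 455. Gata6 averaged 1.27 ± 0.119 RPKM in PC iPSC and 1.05 ± 0.0469 RPKM in control iPSC (SD, n = 2 each). Its log2 difference was 0.25 (SE 0.29, 95% interval -0.44 to 0.94). Dab2 averaged 5.17 ± 1.36 and 3.89 ± 1.38 RPKM in PC and control iPSC, a difference of 0.38 (SE 0.27, -0.27 to 1.03). Gata4 averaged 2.01 ± 0.378 and 2.45 ± 0.33 RPKM, a difference of -0.30 (SE 0.27, -0.95 to 0.35). Sox17 averaged 0.39 ± 0.0499 and 0.33 ± 0.202 RPKM, a difference of 0.22 (SE 0.58, -1.15 to 1.59), and Hnf4a 0.666 ± 0.452 and 0.439 ± 0.047 RPKM, a difference of 0.59 (SE 0.55, -0.73 to 1.91). The edgeR adjusted p was 0.963 for Gata4, Gata6, Dab2 and Hnf4a and 0.979 for Sox17. The groups did not overlap for 1 of the 5, Gata6, where 31.5% of all tested genes had no overlap.

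Signs rested on single lines for 2 genes. Without PC iPSC 13 the Hnf4a difference was -0.39, and without control iPSC 3 that of Sox17 was -0.29. Dab2 differed by 0.81 without control iPSC 7 (edgeR adjusted p = 0.0626), a fit in which control iPSC 3, the line lowest in fibroblast markers, was the only control and 309 genes were called, and by 0.07 without control iPSC 3.

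Against ESC, Dab2 was the only tested member called, and it was higher in iPSC. It averaged 4.53 ± 1.34 RPKM in iPSC (SD, n = 4) and 1.43 RPKM in ESC, a log2 difference of 1.61 (SE 0.35, edgeR adjusted p = 0.0369), with 4 of 4 lines above ESC. Of all tested genes 10.4% were called, 4.71% higher and 5.71% lower in iPSC. Of the 20 fibroblast markers 9 were called higher and 20 had a positive difference (median 1.35, against 0.03 over all tested genes), with 16 called by DESeq2 and 0 by limma on either scale. Gata6, at 1.16 ± 0.146 RPKM in iPSC (SD, n = 4) and 0.56 RPKM in ESC, differed by 1.00 (SE 0.35) and did not pass (edgeR adjusted p = 0.118), with 4 of 4 lines above ESC. The lines lay wholly above ESC for 2 of the 5 tested members, Gata6 and Dab2, as for 33.2% of all tested genes, and wholly below it for 0 of 5, as for 32.6%, so that 65.9% of all tested genes had the lines on 1 side of ESC. Gata4 differed by -0.13 (SE 0.30, 95% interval -0.85 to 0.59), with 2.23 ± 0.383 RPKM in iPSC and 2.36 RPKM in ESC. Sox17, at 0.36 ± 0.125 and 0.193 RPKM in iPSC and ESC, differed by 0.85 (SE 0.70, -0.82 to 2.51), and Hnf4a, at 0.553 ± 0.293 and 0.557 RPKM, by -0.08 (SE 0.61, -1.53 to 1.38). The single ESC library is assumed to vary like the lines. The Dab2 call did not hold with limma on log2(RPKM + 1) (difference 1.16, adjusted p = 0.117) or log2(RPKM + 0.1) (1.55, adjusted p = 0.102), fits that called 11 and 3 genes in all, and its adjusted p ran from 4.76e-06 to 0.117 over the 12 alternatives.

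Against MEF, the members split by direction. Gata4 and Sox17, with no MEF read, were higher in iPSC (edgeR adjusted p = 7.47e-05 and 0.00377). Their iPSC means were 70.5 and 13.7 times the floor of 3 reads in the MEF library. The lowest 95% counting bounds of single lines over MEF were 44.4 times for Gata4 (PC iPSC 5) and 5.28 times for Sox17 (control iPSC 3). Hnf4a was higher too (edgeR adjusted p = 0.00509); with 2 reads in MEF, the single lines had ratios to MEF from 21.2 (counting interval 5.52 to 180.8) in PC iPSC 5 to 60.3 (16.3 to 503.8) in PC iPSC 13. Its call did not hold with limma on log2(RPKM + 1), at 0.59 with an adjusted p of 0.0843. Dab2 was lower, at 4.53 ± 1.34 RPKM in iPSC and 106.4 RPKM in MEF, a log2 difference of -4.55 (SE 0.25, edgeR adjusted p = 1.76e-05). Gata6, at 1.16 ± 0.146 and 1.85 RPKM in iPSC and MEF, differed by -0.65 (SE 0.31, adjusted p = 0.0976) and did not pass, while limma on log2(RPKM + 1) gave -0.40 with an adjusted p of 0.032. These 4 calls of 5 tested members, 3 higher and 1 lower, stand beside 68.1% of all tested genes called, 36.5% higher and 31.6% lower, and the median of all tested genes was 0.16 on this scale. The lines lay wholly above MEF for 3 of the 5 and wholly below it for 2, Gata6 and Dab2, where 47.4% and 41.4% of all tested genes did, 88.8% together. Gata4, Sox17 and Hnf4a, the 3 called higher, passed the expression filter through the pluripotent libraries alone. A gene this low in MEF could enter the test only by being higher elsewhere. The direction of these 3 calls was thus largely set by the filter, and nothing is read from their number. MEF against ESC had 1 library on each side and no test. By levels, MEF exceeded ESC in Gata6 by 3.29 times (counting interval 2.39 to 4.61) and in Dab2 as given above. At a 4-fold limit either way 4 of the 5 tested members differed between MEF and ESC, where 36.5% of all tested genes did. Among these 4 are Gata4, Sox17 and Hnf4a, to which the same limit applies.

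**Figure D4:**
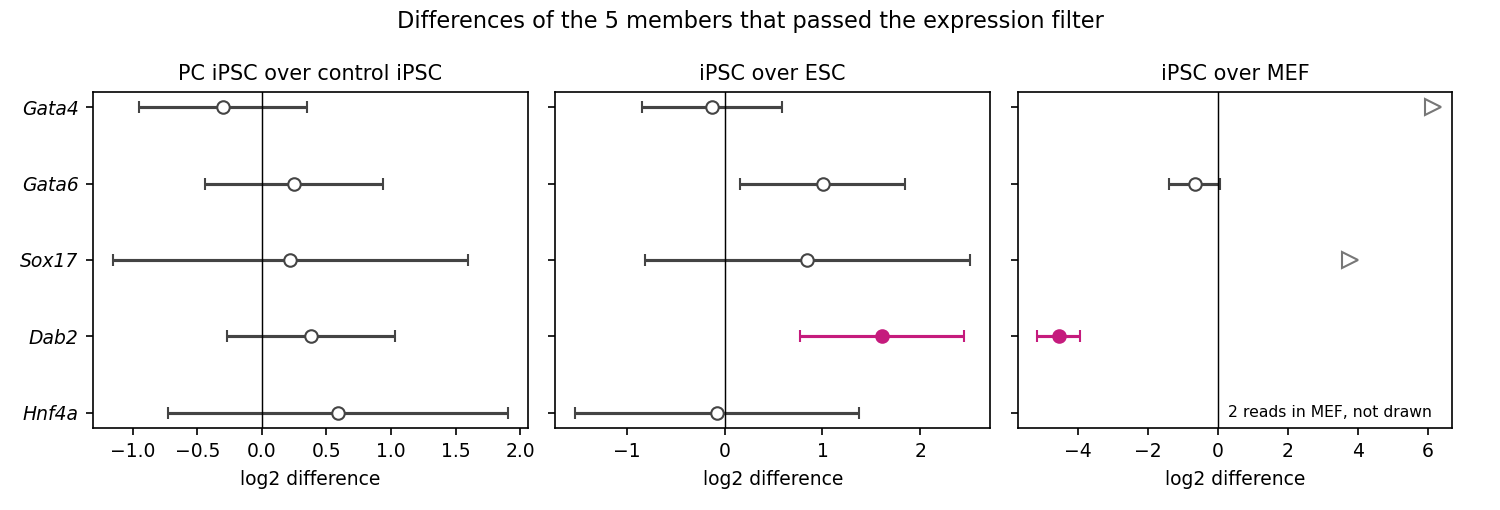
Log2 differences with 95% intervals from edgeR for the 5 tested members, filled where the adjusted p was under 0.05, for PC iPSC over control iPSC, iPSC over ESC and iPSC over MEF. Open triangles mark the iPSC mean over the floor of 3 reads for genes with no MEF read. Dab2 is higher in iPSC than in ESC (1.61) and lower than in MEF (-4.55).

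The genes nearest in profile differed between the members. Likeness was measured over the 6 libraries as the root mean square difference of log2(CPM + 0.5) after centring each gene, over all 16435 tested genes, with smaller values closer. The MEF values of Gata4 and Sox17, with no read there, and nearly so of Hnf4a, with 2, are set by the 0.5 added, so for these members the measure says little about MEF. Nearest to Gata4 were the spindle protein gene Tpx2 (0.0552), the centromere gene Cenpn (0.0627) and the replication licensing gene Mcm2 (0.0725). They were even over the pluripotent libraries and low in MEF. Tpx2 stood at 44.0 to 58.2 RPKM in iPSC and 3.13 RPKM in MEF, a smaller difference than that of Gata4 from the floor of 3 reads. Gata6 was nearest to Bcorl1 (0.0624), a corepressor gene, then Zfp449 (0.0781) and Ptdss1 (0.0874), a phosphatidylserine synthase gene. Dab2 was nearest to Piezo2 (0.115), a mechanosensitive channel gene, Col3a1 (0.166) and Trabd2b (0.184). Sox17 was nearest to the oocyte chaperone gene Npm2 (0.131), the DNase gene Dnase1l3 (0.157) and Fbxo16 (0.161), which lie on chromosome 14 while Sox17 lies on chromosome 1. Hnf4a had no gene as close, its nearest being Nrgn (0.228), Fam150a (0.276) and Zmym1 (0.283). Among the members themselves the closest pair was Sox17 and Hnf4a (0.539) and the farthest was Gata4 and Dab2 (3.39), with Gata4 and Gata6 at 1.84. Sox17 and Hnf4a had the fewest reads of the tested members, 21 to 51 and 42 to 117 in the lines. The 0.5 added thus narrows their differences in the pluripotent libraries too, and no likeness of the pair is read from it.

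Other genes of the endoderm programme were described as lists, by counts and medians, with edgeR calls, log2 differences of iPSC minus ESC in brackets and iPSC levels as mean ± SD (n = 4). With limma 0 or 1 gene a list was called against ESC. Beside the list counts, edgeR called 4.71% of all tested genes higher and 5.71% lower in iPSC than in ESC. Against MEF these shares were 36.5% and 31.6%. Between PC and control iPSC 0 genes of any list were called by edgeR, DESeq2 or limma, as over all tested genes, and edgeR gave 0 to 2 genes a list an unadjusted p under 0.05. Of 19 genes of primitive and parietal endoderm, all tested, 2 were called higher and 1 lower in iPSC than in ESC (median 0.59, against 0.03 over all tested genes). The list summed to 1029.9 and 848.4 RPKM in PC iPSC 5 and 13 and 654.5 and 906.3 in control iPSC 3 and 7. Its sums were 651.6 RPKM in ESC and 2068.3 RPKM in MEF. This order of libraries was that of the fibroblast markers, whose part in it was not tested. Sparc was a large part of the sum, at 612.1 and 495.8 RPKM in PC iPSC 5 and 13 and 321.0 and 540.8 in control iPSC 3 and 7. It had this order by itself. Control iPSC 3 and ESC were close in the sum, at 654.5 and 651.6 RPKM, and further apart in Sparc, at 321.0 and 284.2 RPKM. The other genes together were thus higher in ESC than in control iPSC 3 and did not have this order. Fst, the activin antagonist follistatin, stood at 3.67 ± 0.671 RPKM in iPSC and 1.02 RPKM in ESC (edgeR adjusted p = 0.0198). It was higher still in MEF, at 18.6 RPKM. Snai1, a repressor of epithelial genes, differed by 1.22 and the small GTPase gene Rhob by -1.52. Snai1 stood at 6.35 ± 0.928 RPKM in iPSC and 9.9 RPKM in MEF. The part of feeder RNA in the levels of these and the other listed genes was not tested. Sparc, a matrix glycoprotein of parietal endoderm and of fibroblasts, stood at 492.4 ± 123.9 RPKM in iPSC and 284.2 RPKM in ESC and did not pass (adjusted p = 0.164). Against MEF 5 were called higher and 11 lower in iPSC (median -1.19, against 0.16), Sparc being at 1344.1 RPKM in MEF. Of 12 tested of 15 measured genes of visceral endoderm and yolk sac proteins, 2 were called higher and 3 lower against ESC (median 0.04). Apom, an apolipoprotein gene, stood at 2.55 ± 0.686 RPKM in iPSC, 0.245 RPKM in ESC (log2 difference 3.27) and 0.195 RPKM in MEF. Tdh, threonine dehydrogenase of mouse ESC metabolism, stood at 139.2 ± 29.4 RPKM in iPSC, 34.2 RPKM in ESC (1.97) and 3.67 RPKM in MEF. The fibrinogen gene Fgg, at 0.228 ± 0.148 RPKM in iPSC and 3.78 RPKM in ESC, differed by -4.31. Gc, the vitamin D-binding protein gene, was lower too, at 0.0154 ± 0.0195 RPKM in iPSC, from few reads, and 0.632 RPKM in ESC (edgeR adjusted p = 0.0331). Trf, the transferrin gene, named after its values were seen, was the other one lower, at 2.1 ± 0.272 RPKM in iPSC and 4.7 RPKM in ESC (-1.20). Alb, Gc and Afm, of the albumin family as is Afp, had at most 3 reads in each iPSC library.

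Of 14 tested of 17 measured genes of definitive endoderm and anterior streak, 1 was called higher and 1 lower against ESC (median 0.35). The glypican gene Gpc4 differed by 1.83 and Prdm1, the transcriptional repressor BLIMP1, by -2.58. Gpc4 stood at 31.7 ± 3.15 RPKM in iPSC, 8.67 RPKM in ESC and 113.9 RPKM in MEF. Kit, at 25.8 ± 9.78 RPKM in iPSC and 22.6 RPKM in ESC, and Trh, at 8.41 ± 5.15 and 6.57 RPKM, did not pass, and Lhx1 and Nepn had at most 3 reads in each iPSC library. Of 6 tested relatives and cofactors of the GATA factors 1 was called higher against ESC, Trps1, an atypical GATA repressor. It stood at 2.28 ± 0.236 RPKM in iPSC, 1.20 RPKM in ESC (0.89) and 15.1 RPKM in MEF. Zfpm1, Gata2 and Gata3 did not pass, at 7.47 ± 1.24, 1.63 ± 0.578 and 1.01 ± 0.433 RPKM in iPSC and 7.30, 3.46 and 1.01 RPKM in ESC. Of 10 tested SOX, FOXA and HNF relatives 0 were called against ESC by edgeR, DESeq2 or limma, and 3 had an unadjusted p under 0.05 in edgeR. Foxa1 and Dab1 stood at 0.583 ± 0.0747 and 0.554 ± 0.147 RPKM in iPSC and 0.236 and 0.499 RPKM in ESC, and Sox2 at 161.8 ± 12.3 and 212.6 RPKM.

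Among 18 genes of the fibroblast growth factor input that favours Gata6, 1 was called higher and 2 lower in iPSC than in ESC (median -0.09). The ligand gene Fgf4 stood at 93.7 ± 8.55 RPKM in iPSC and 182.1 RPKM in ESC (edgeR adjusted p = 0.0171), and the receptor gene Fgfr2, used by primitive endoderm, at 0.789 ± 0.181 and 5.72 RPKM (-2.90). The feedback inhibitor gene Spry2 was higher, at 32.9 ± 7.1 RPKM in iPSC, 14.1 RPKM in ESC (1.16) and 19.1 RPKM in MEF. The target gene Etv5 did not pass, at 110.3 ± 14.8 RPKM in iPSC and 88.8 RPKM in ESC. Of 13 genes of the epiblast and the naive state, among them Fgf4 again, which epiblast cells make, 4 were called higher and 2 lower against ESC (median 0.13). Klf4 (2.00), Bmp4 (2.43), Tbx3 (1.41) and, named after its values were seen, Zfp42 (1.24) were higher, and Klf2 (-1.81) and Fgf4 lower. In MEF, Klf4 and Bmp4 stood at 123.5 and 22.1 RPKM, above their iPSC means of 88.6 and 3.61 RPKM. Tbx3, at 5.47 RPKM, and Zfp42, with no read, lay below theirs. Heart mesoderm markers, since GATA4 and GATA6 also act in heart, summed to 9.26 and 6.27 RPKM in PC iPSC 5 and 13, 5.65 and 6.61 RPKM in control iPSC 3 and 7, 6.82 RPKM in ESC and 35.0 RPKM in MEF, and 1 of 12 tested, Hand2, was called higher in iPSC than in ESC (2.25). Hand2 stood at 0.957 ± 0.16 RPKM in iPSC and 6.36 RPKM in MEF. Nkx2-5, an early heart factor, stood at 0.474 ± 0.108 RPKM in iPSC and 0.963 RPKM in ESC. The part of heart mesoderm cells in the Gata4 and Gata6 levels was not tested.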

How the data were processed

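Processed tables of 6 mouse RNA-seq libraries were used. Per the labels' protocols, libraries for mRNA were made from total RNA. The authors deposited uniquely assigned read counts per gene, RPKM values and a coverage column (percent of gene length covered), per the file headers. The submitters' processing notes name CASAVA 1.8.2 and mm10, with no role given, and no aligner, annotation or strand setting is named in the sources used here. Recomputed RPKM matched the deposited values within a relative 1e-06 for all but 93 genes, none of them a member. Counts were the same in the series and library tables.

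Counts were tested with edgeR 4.0.16 (R 4.3.3, TMM, default expression filter, quasi-likelihood test, tested on simulated data) with 4 group means over 6 libraries, giving 2 residual degrees of freedom and a biological coefficient of variation of 0.18. Adjusted p-values are Benjamini-Hochberg over 16435 genes, with a threshold of 0.05. DESeq2 1.42.0 and limma 3.58.1, other scalings and filters, single lines left out and smaller fits were alternatives. Fold changes are log2 differences. Positions are RefSeq, GRCm38.p6, and overlapping genes GENCODE M21, of the same build as mm10. The members and lists were chosen with earlier results of these data known. Named genes are the members, up to 4 genes of each list (those called against ESC with the largest difference, then the highest in iPSC) and the 3 nearest profiles per tested member. List genes with no row in the table were not analysed here. A gene that the rule names is not reported here. Other list genes (Dcn, Acta2, Cdh5, Alb, Afm, Lhx1, Nepn, Trf and Zfp42) were named after their values were seen. Because nothing says that lines came from separate animals, p-values measure the spread of these samples alone, which may be technical.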

Additional observations from a re-analysis of the deposited data

Results flagged for a closer look

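Afp in control iPSC 7, at 0.0362 RPKM from 2 reads, stood apart from the other 3 iPSC lines, which had no read. With so few reads, any gene whose only reads fell in 1 line would show such a gap, so nothing is read from it. The gap of Hnf4a in PC iPSC 13 was 0.804 of the range of the 4 lines, under the critical value for 4 samples.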

How the results depend on the processing

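Over 174 values of the members under alternatives, 167 kept their direction and their side of the threshold. The iPSC and ESC comparison called 1713 genes, 45.2% of them higher in iPSC. It called 11 (27.3% higher) and 3 (100.0% higher) with limma on log2(RPKM + 1) and log2(RPKM + 0.1), with 0 members called in each, and 2367 (55.3% higher) with DESeq2. Leaving out single lines gave 1781 to 2873 calls, the highest without control iPSC 3, with 2734 without control iPSC 7, and 1 member called each time. For PC against control iPSC the range was 0 to 309, the 309 without control iPSC 7, with 0 members called each time. For iPSC against MEF, 10894 to 11260 genes and 4 members were called without single lines, and 2 members with a mean RPKM of at least 1, a filter that leaves 3 members to test. Signs turned for Sox17 between PC and control iPSC without control iPSC 3 (-0.29, range over lines left out -0.29 to 1.04), for Hnf4a in the same comparison without PC iPSC 13 (-0.39, range -0.39 to 1.17), and for Hnf4a against ESC without PC iPSC 5 (0.19, range -0.57 to 0.19). Hnf4a against MEF lost its call with limma on log2(RPKM + 1), at 0.59 with an adjusted p of 0.0843. Where a setting changed a call, the cause was not tested. No paired analysis was possible because the PC lines are numbered 5 and 13 and the control lines 3 and 7, so no number is shared. Depth limits Sox7, Foxa2 and Afp, with 13, 15 and 2 reads over all 6 libraries, and the Hnf4a level in MEF.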

Other observations

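Genes of mature endoderm organs were low in the pluripotent libraries. The 9 measured genes summed to 3.97 and 3.91 RPKM in PC iPSC 5 and 13, 2.40 and 3.56 RPKM in control iPSC 3 and 7, 3.38 RPKM in ESC and 12.1 RPKM in MEF. Of 7 tested, 0 were called by edgeR, DESeq2 or limma between PC and control iPSC or between iPSC and ESC, and 0 had an unadjusted p under 0.05 in edgeR. Cebpa, a liver and fat cell factor, stood at 1.36 ± 0.509 RPKM in iPSC and 1.63 RPKM in ESC. Vil1, the gut brush border protein villin, stood at 0.570 ± 0.123 RPKM in iPSC and 0.678 RPKM in ESC. Prox1, a liver and lymphatic factor, stood at 0.368 ± 0.107 and 0.475 RPKM. Tat, a liver enzyme gene, stood at 0.911 RPKM in PC iPSC 5 against 0.0310 RPKM in PC iPSC 13.

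Markers of other cell types were called in some comparisons with ESC, where 4.71% of all tested genes were called higher and 5.71% lower in iPSC. Of 12 tested endothelial markers 2 were called higher in iPSC, Tie1 (2.80) and Robo4 (0.405 ± 0.0458 RPKM in iPSC and 0.0194 RPKM in ESC, edgeR adjusted p = 0.0287), with Pecam1 (0.01) and Egfl7 (0.16) not passing. Tie1 stood at 2.14 and 4.73 RPKM in PC iPSC 5 and 13, 1.76 and 3.16 RPKM in control iPSC 3 and 7 and 0.406 RPKM in ESC. Of 12 tested macrophage markers 2 were called lower in iPSC, Cd68 (-2.38) and Lyz2 (-1.41). All 12 were called lower in iPSC than in MEF, as were 31.6% of all tested genes. In MEF, Lyz2 stood at 463.3 RPKM and C1qa at 89.8 RPKM. The fibroblast markers with the largest called differences from ESC were Lum (2.65), Postn (2.39), Col3a1 (1.98) and Twist2 (1.97). Myl7 and Hand1, heart genes, stood at 1.70 ± 0.731 and 0.765 ± 0.457 RPKM in iPSC and 2.33 and 0.736 RPKM in ESC.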
